A study of Schizosaccharomyces pombe with 4 samples.

Results

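The rows of interest here are the fission yeast (Schizosaccharomyces pombe) non-coding RNAs with the largest read counts in wild-type cells. They were chosen as the identifiers beginning with SPNCRNA whose mean log2 value in the 2 wild-type libraries was at least that of 5793 normalized counts, and SPNCRNA.1343, SPNCRNA.1672, SPNCRNA.1673 and SPNCRNA.1674 were left out. This gave 248 of the 1524 SPNCRNA rows in a table of 6986 genes. The wild-type group was strain WT972, and the mutant group, set2d, was strain SPKK1227, which lacks set2. Both were grown asynchronously to log phase in YEA medium at 30 °C, and total RNA was sequenced in 2 libraries per group. The labels do not say whether the libraries of a group came from separate cultures, and p-values therefore cover only the spread between these libraries. Poly(A) selection and the strand setting of the library and of the counting were not given in the sources used here.

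Set2 is the methyltransferase that places methyl groups on lysine 36 of histone H3 over transcribed genes. In yeasts this mark is known to recruit histone deacetylase activity that restrains transcription starting inside genes and on their antisense strand. Many fission yeast long non-coding RNAs are annotated antisense to coding genes, and their levels also depend on nuclear RNA decay by the exosome.

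The deleted gene checked the labels. The set2 gene had 10503 and 8665 normalized counts in the WT libraries and 2257 and 1448 in the set2d libraries, and it fell by 2.40 on the log2 scale (SE 0.22, limma adjusted p = 0.00041). Residual counts in set2d were therefore above the floor of 10 that the deposited values carry. The median gene had 5050 to 5518 normalized counts in a library, and the 248 members took 7.04% to 7.30% of the normalized counts of every library. Counting depth is unknown.

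Most of these non-coding RNAs lay under coding genes on the other strand. Positions in the ASM294v3 annotation were available for 241 members. Of these, 208 (86.3%) had at least 50% of their length under protein-coding genes of the opposite strand and 5 (2.07%) under genes of the same strand. Another 27 (11.2%) were partly overlapped, and SPNCRNA.1305 alone met no coding gene. Among the other SPNCRNA rows with a position, 461 of 1180 (39.1%) lay mostly under opposite-strand genes and 480 (40.7%) met no coding gene. Members were also longer, with a median of 1950 bp (range 325 to 5317) against 938 bp, and the rule used counts not divided by length. Chromosome I carried 116 members, chromosome II 92 and chromosome III 33. These are properties of rows picked by their WT counts and are given without a test.

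The WT counts of the members followed the coding genes they overlap. For each of the 240 members that meet a coding gene, an even share was computed: the counts it would have if the reads of every overlapping coding gene were spread evenly along that gene and counted on both strands. The observed WT counts had a median log2 ratio of 0.082 to this even share (quartiles 0.0007 and 0.28), and 231 of 240 lay within 1 log2 unit of it. For 35 members the value was within 0.01 log2 units of that of the main overlapping gene, called the partner below, in all 4 libraries. The WT counts chose the members, so this is a description with no test. Since the strand setting is not given, reads of a member and of a gene that overlaps it cannot be told apart, and each value below is read as a count over the interval.

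**Figure D1:**
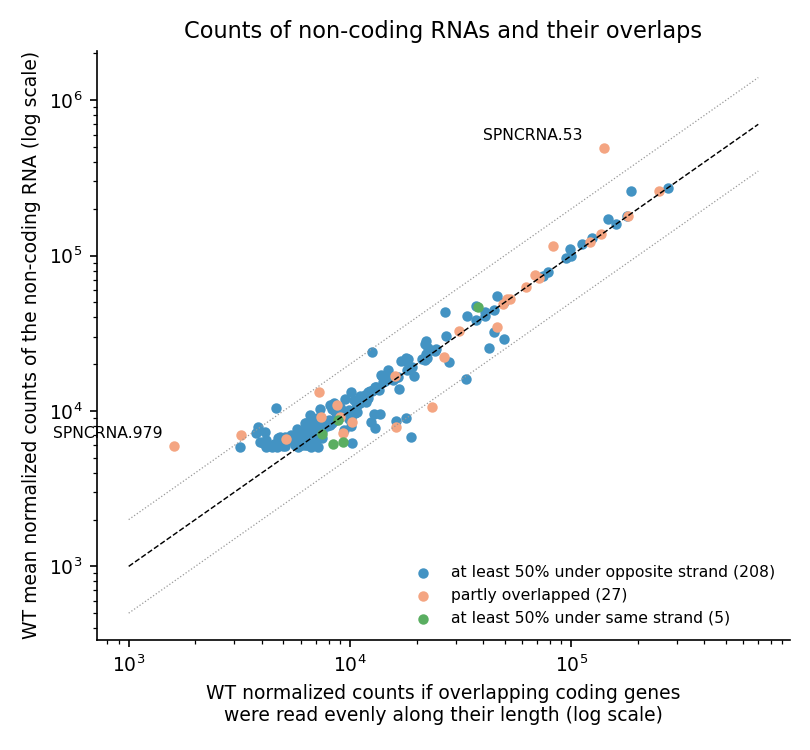
WT normalized counts of each of the 240 members that overlap a coding gene (vertical axis, log scale) against the counts expected if the reads of all overlapping coding genes lay evenly along them (horizontal axis, log scale). The dashed line marks equality and the dotted lines 1 log2 unit either way; 231 points lie between the dotted lines, and SPNCRNA.53 and SPNCRNA.979 lie above them.

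The SPNCRNA.53 row, named prl53 in the annotation as a poly(A)-bearing non-coding RNA, was one of the 5 members more than 1 log2 unit above the even share. It had 486614 and 496888 normalized counts in WT and 330807 and 399653 in set2d. Both set2d libraries were below both WT libraries, but the change of -0.44 (SE 0.16) did not pass the test (limma adjusted p = 0.117). The overlapping gene on the same strand, SPAC27E2.11c, covers 18.0% of it. The WT counts of SPNCRNA.53 were 1.81 log2 units above the even share of that gene. Per kilobase, SPNCRNA.53 had 265524 WT normalized counts and SPAC27E2.11c had 421715.

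SPNCRNA.979 stood 1.89 log2 units above its even share, the most of any member. Of its length 4.02% lies under gpd2, a glycerol-3-phosphate dehydrogenase gene, and 3.87% under nup146, a nucleoporin gene. A pseudogene, SPAC23D3.05c, which was not part of that calculation, covers another 38.8% of it. Its normalized counts were 5315 and 6611 in WT and 8000 and 8361 in set2d. The groups did not overlap, and the change of 0.46 (SE 0.14) missed the threshold (limma adjusted p = 0.071), while the pseudogene rose by 0.53 (limma adjusted p = 0.0344).

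Apart from SPNCRNA.53, the 5 highest WT counts per length among members with a position sat opposite genes of the translation machinery. SPNCRNA.826 had 276656 WT normalized counts per kilobase and overlaps cpc2, the RACK1 protein of the ribosome. SPNCRNA.1261 had 264215 and overlaps rps20, SPNCRNA.1594 had 212923 and overlaps rpl1801, SPNCRNA.1465 had 151537 and overlaps rps1601, and SPNCRNA.741 had 139482 and overlaps rpl2001, all ribosomal protein genes. SPNCRNA.1594 was the closest of these 5 to its partner. It had 275905 and 272585 normalized counts in WT and 252343 and 237548 in set2d, and rpl1801 had 275898, 272581, 252338 and 237530. Other pairs were further apart: the WT means were 261163 for SPNCRNA.826 and 502392 for cpc2, and 114514 for SPNCRNA.741 and 168011 for rpl2001. None of these 5 passed the test (limma adjusted p from 0.463 to 0.896), with log2 changes of 0.039, 0.07, -0.16, -0.06 and 0.16 in the order named. Over all 11 members whose partner is a ribosomal protein gene, 0 passed in limma (1 at an unadjusted p under 0.05, and 0 without the mean-variance trend), where 11.6% of all genes tested were higher and 2.77% lower, and the median log2 change was 0.07.

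A pair of rows, SPNCRNA.2001 and SPNCRNA.2002, held the largest counts of all, chosen for description after their values were seen. SPNCRNA.2001 had 855163 and 945500 normalized counts in WT and 752401 and 742094 in set2d. The alcohol dehydrogenase gene adh1 had 855184, 945377, 752421 and 741454 in the same libraries, and SPNCRNA.2002 had 855157, 945489, 752398 and 742076. Their tags are reused in ASM294v3 for another locus, so no position is given for them. Their log2 change was -0.27 (SE 0.17, limma adjusted p = 0.354).

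In set2d, more of the members rose than fell. The WT libraries that chose the members are also one side of this contrast, so counts of calls describe the members and are set beside the background over all genes. By limma at an adjusted p under 0.05, 43 of 248 members (17.3%) were higher and 8 (3.23%) were lower in set2d, against 11.6% higher and 2.77% lower over the 6633 genes tested. All 248 passed the filter on low values. The median log2 change of the members was 0.11 (quartiles -0.086 and 0.35), and that of all genes was 0.0091. Both set2d libraries lay above both WT libraries for 107 members (43.1%, background 31.5%) and below them for 40 (16.1%, background 26.2%), and for 101 the groups overlapped. Most changes were small: 204 members changed by less than 0.5 log2 units and 6 by 1 or more.

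These counts rest on how the spread is estimated. Without the mean-variance trend 21 members were higher and 5 lower, with no filter on low values 7 were higher and 0 lower, and leaving out set2d replicate 1 left 14 higher and 1 lower. The calls of SPNCRNA.763, SPNCRNA.803, SPNCRNA.857, SPNCRNA.1042, SPNCRNA.1206 and SPNCRNA.1491, all higher, were kept in all 12 refits. Quantile normalization gave 27 higher and 9 lower members, and 574 higher and 275 lower over all genes in place of 767 and 184. The other SPNCRNA rows had 145 higher (12.2%) and 41 lower (3.44%) of 1192 tested, with a median of 0.087. Coding genes that met the same WT threshold had 256 higher (8.69%) and 89 lower (3.02%) of 2946, with a median of -0.025. The 239 coding partners of the members had 40 higher (16.7%) and 4 lower (1.67%), with a median of 0.10. The share called higher and the median of the members were thus close to those of the coding genes that overlap them. Both values of a pair may come from the same reads, so the partners are not a separate set of observations.

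**Figure D2:**
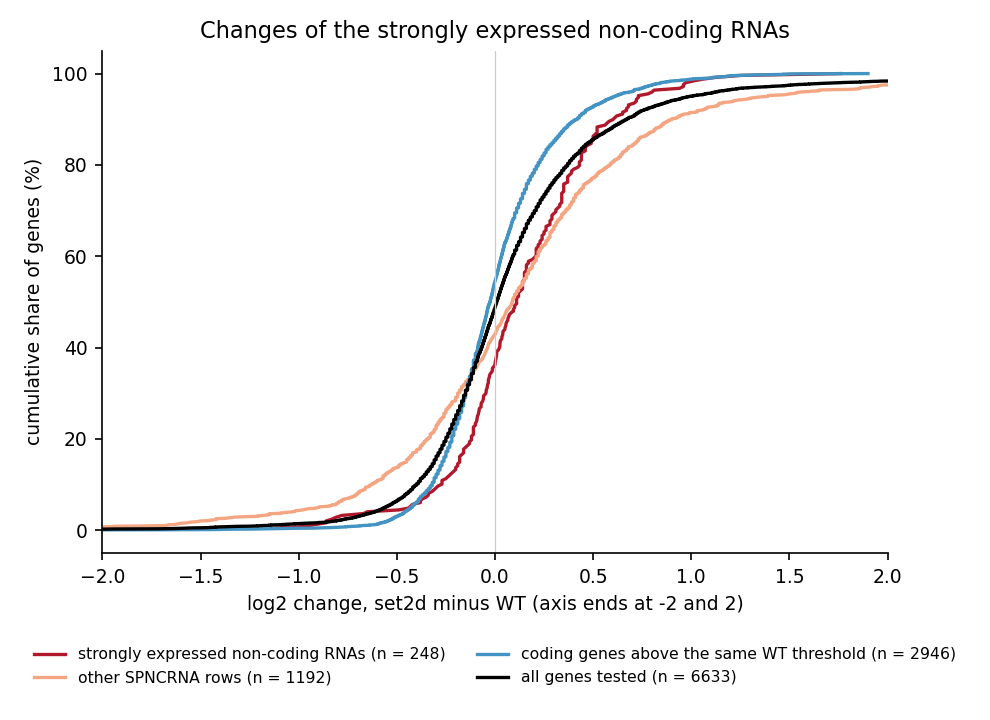
Cumulative share of genes (vertical axis, %) by log2 change, set2d minus WT (horizontal axis, which ends at -2 and 2), for the 248 members, the 1192 other SPNCRNA rows tested, the 2946 coding genes that met the same WT threshold and all 6633 genes. The curve of the members lies to the right of that of the coding genes through the middle of the range, with medians of 0.11 and -0.025. The coding partners of the members, not drawn separately, had a median of 0.10.

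By position, the calls fell mostly where most members lie. Among the 208 members mostly under an opposite-strand gene, 39 rose (18.8%) and 6 fell (2.88%), against 11.6% and 2.77% of all genes tested, with a median log2 change of 0.14. Of the 27 that were partly overlapped, 2 rose (7.41%) and 1 fell (3.70%), with a median of 0.07. None of the 5 under a same-strand gene passed in limma (1 at an unadjusted p under 0.05), and their median was -0.35. That class held SPNCRNA.133 at -0.81, SPNCRNA.570 at -0.38, prl32 at -0.35, SPNCRNA.112 at -0.081 and nc-tco1 at -0.0044. SPNCRNA.1358, partly over the branched-chain aminotransferase gene eca39, had a change of 0.47 that did not pass (limma adjusted p = 0.101). Higher members numbered 24 on chromosome I (20.7%), 13 on chromosome II (14.1%) and 5 on chromosome III (15.2%), beside the same 11.6%.

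The largest change was that of SPNCRNA.793. It had 111061 and 135396 normalized counts in WT and 338765 and 507080 in set2d, with no overlap, and rose by 1.76 (SE 0.20, limma adjusted p = 0.00116). It spans the whole of obr1, a quinone dehydrogenase gene on the opposite strand that makes up 37.7% of its length. The obr1 counts were 109144, 132750, 336902 and 503017 in the same order, a rise of 1.77. A pair of shorter non-coding rows under the same RNA, SPNCRNA.792 and SPNCRNA.794, had changes of 0.19 and 0.45 that did not pass. They span 23.4% and 31.1% of its length but had WT mean log2 values of only 8.18 and 10.60. The WT mean log2 value was 16.90 for SPNCRNA.793 and 16.88 for obr1.

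SPNCRNA.803 lies wholly within hrp1, the gene of a CHD-family chromatin remodeler. Its normalized counts were 9436 and 9321 in WT and 21525 and 23193 in set2d. The libraries of each group were close, and the rise of 1.25 (SE 0.11, limma adjusted p = 0.000312) was beside one of 1.11 for hrp1.

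SPNCRNA.857 lies opposite SPACUNK4.17, a dehydrogenase-family gene, and had 7447 and 7406 normalized counts in WT and 16982 and 15490 in set2d. Again the groups were well apart, and it rose by 1.13 (SE 0.12, limma adjusted p = 0.00059). SPACUNK4.17 rose by 1.18.

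SPNCRNA.608 is a long antisense RNA over more than one gene, and had 8103 and 8879 normalized counts in WT and 15687 and 19821 in set2d. Both set2d libraries exceeded both WT libraries, with a rise of 1.06 (SE 0.14, limma adjusted p = 0.00214). Its main partner, the uncharacterized SPAC11D3.03c, had a change of 0.62 that did not pass (limma adjusted p = 0.103). The next gene under it, SPAC11D3.02c, covers 24.9% of its length and rose by 1.11 (limma adjusted p = 0.000772). The calls of SPNCRNA.793 and SPNCRNA.608 were lost with no filter on low values.

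Another 5 of the larger rises were also of members opposite coding genes that rose. SPNCRNA.1206, inside the nucleoporin gene nup211, rose by 0.97 and nup211 by 0.84. SPNCRNA.1143, over the guanine deaminase gene gud1, rose by 0.96 and gud1 by 0.98. SPNCRNA.1042 rose by 0.96, SPNCRNA.847 by 0.94 and SPNCRNA.678 by 0.81, and their partners were pxr1, nog2 and kri1, of ribosome biogenesis, with rises of 0.91, 0.94 and 0.78. In all 5 the libraries of the groups did not overlap. The calls of SPNCRNA.1143, SPNCRNA.847 and SPNCRNA.678 were lost with no filter on low values and on leaving out 1 set2d library.

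A few of the smaller called rises are named here after their values were seen, for what the partner encodes. SPNCRNA.712 rose by 0.78 over cwf19, named for a splicing complex, which also rose by 0.78. SPNCRNA.724 rose by 0.65 over prp22, the spliceosomal RNA helicase, which rose by 0.71. SPNCRNA.787 rose by 0.73 at ebp2, an rRNA processing gene, which rose by 0.71. SPNCRNA.1491 rose by 0.73 at the WD repeat gene pwp1, which rose by 0.71. SPNCRNA.1659 rose by 0.68 over arg4, a carbamoyl-phosphate synthase gene, which rose by 0.59. SPNCRNA.930 rose by 0.52 over sgo2, the shugoshin gene of chromosome segregation, which rose by 0.56. Of these 6, the calls of SPNCRNA.712, SPNCRNA.724, SPNCRNA.787, SPNCRNA.1659 and SPNCRNA.930 were each lost in 2 or more of the 12 refits.

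**Figure D3:**
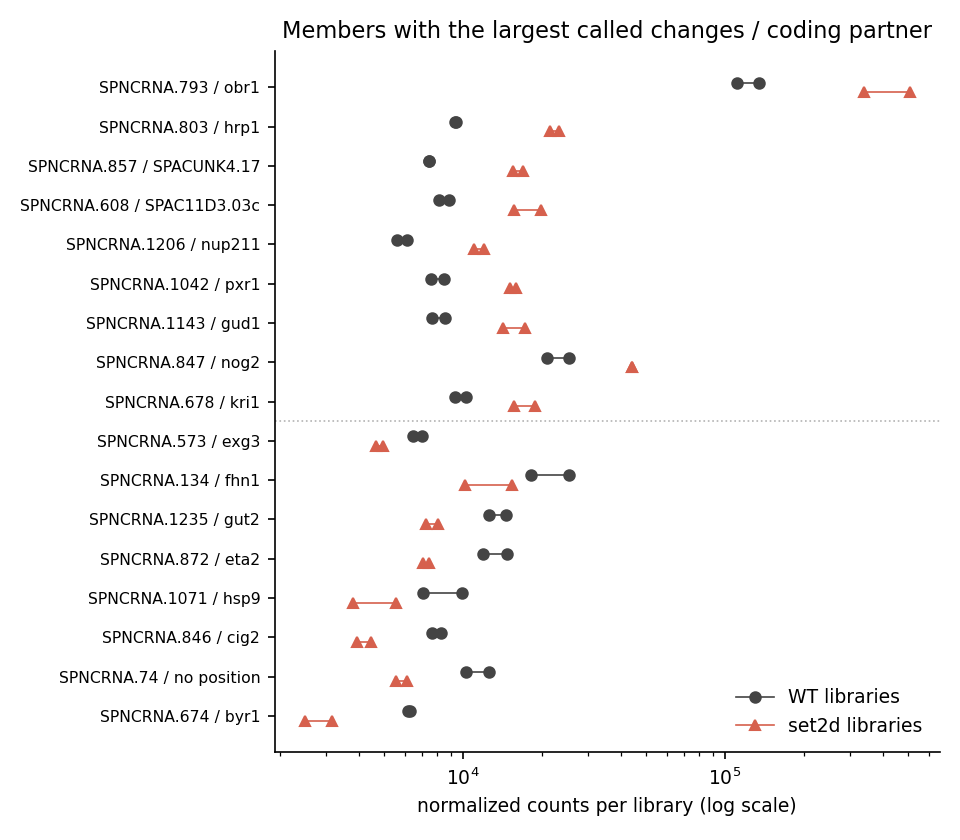
Normalized counts in each library (horizontal axis, log scale; circles WT, triangles set2d) of 9 of the 10 members with the largest called rises, above the dotted line, and the 8 called lower, below it, each labelled with its coding partner or, for SPNCRNA.74, as having no position. In every row the set2d points do not overlap the WT points, and SPNCRNA.793 has the widest gap.

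SPNCRNA.674 fell the most. It had 6154 and 6304 normalized counts in WT and 2500 and 3181 in set2d, with no overlap, and fell by 1.14 on the log2 scale (SE 0.16, limma adjusted p = 0.0029). It covers all of byr1, the MAP kinase kinase gene of the mating pathway, whose counts of 6162, 6309, 2510 and 3190 were almost the same. Its call was lost with no filter on low values.

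The other lower members were mostly close to their partners too. SPNCRNA.872, over eta2 of RNA polymerase I termination, fell by 0.86 and eta2 by 0.90. SPNCRNA.1235, over the glycerol-3-phosphate dehydrogenase gene gut2, fell by 0.83, as did gut2. SPNCRNA.74, which has no position in the annotation used, had 12561 and 10312 normalized counts in WT and 6113 and 5548 in set2d, and fell by 0.97 (SE 0.14, limma adjusted p = 0.00312). The calls of all 3 were lost with no filter on low values and without set2d replicate 1, and those of SPNCRNA.872 and SPNCRNA.74 also without set2d replicate 2.

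The smaller or noisier falls passed less securely. SPNCRNA.134 had 18283 and 25359 normalized counts in WT and 10216 and 15374 in set2d (log2 change -0.78, limma adjusted p = 0.046), and SPNCRNA.133 over the same eisosome gene, fhn1, missed the threshold at -0.81 (limma adjusted p = 0.0858). SPNCRNA.1071, which overlaps the heat shock gene hsp9 over 5.15% of its length, was called at -0.86 (SE 0.22, limma adjusted p = 0.0339), and SPNCRNA.573, inside the glucanase gene exg3, at -0.49 (SE 0.13, limma adjusted p = 0.0433). The calls of SPNCRNA.134, SPNCRNA.1071 and SPNCRNA.573 were each lost without the trend, with no filter on low values and on leaving out WT replicate 2 or either set2d library.

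The changes of members and partners ran together. Across the 240 pairs Pearson's r of the log2 changes was 0.951 and Spearman's rho 0.942, given as a description, since both values of a pair come from the same libraries and may come from the same reads. The difference between the changes of member and partner had a median size of 0.034 and was under 0.1 for 200 pairs. Of the 48 called members with a partner, all 48 had a partner with a change of the same sign, and for 39 the partner was called in the same direction. In the other 9 the partner did not pass.

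**Figure D4:**
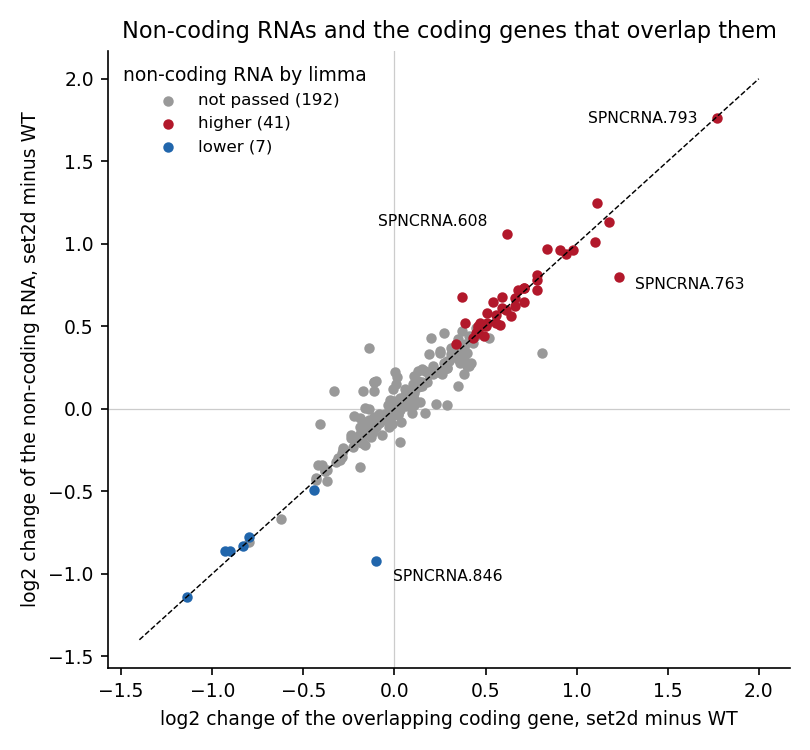
Log2 change of each of the 240 members (vertical axis) against that of its overlapping coding gene (horizontal axis), both set2d minus WT. Coloured points are the 41 members called higher and 7 called lower, the dashed line marks equal changes, and SPNCRNA.846 lies farthest from it.

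Whether a member changed relative to its partner was tested on their log2 ratio, a comparison chosen after the data were seen. Of 936 overlapping pairs of SPNCRNA rows and coding genes, 0 passed in limma at an adjusted p under 0.05 in either direction (113 at an unadjusted p under 0.05, 0 without the trend, background 0.0%). The smallest limma adjusted p was 0.153. This fit had 2 residual and only 1.06 prior degrees of freedom, and its variance trend was on the mean log2 ratio. For 80 of the 240 members the value was within 0.1 log2 units of the partner's in all 4 libraries, so those ratios could hardly change. A ratio that did not pass therefore does not show that member and partner changed equally. At an unadjusted p under 0.05 in limma, the ratios of 8 of the 240 members were raised and those of 5 were reduced in set2d. Beside the 113 of all 936 pairs, these counts do not set the members apart.

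SPNCRNA.846, within cig2, had the largest difference from its partner among the members. The gene cig2 encodes a B-type cyclin of the G1/S transition. SPNCRNA.846 had 8276 and 7634 normalized counts in WT and 3937 and 4476 in set2d, a fall of 0.92 on the log2 scale (SE 0.14, limma adjusted p = 0.0035).

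The whole of cig2, of which SPNCRNA.846 covers 44.6%, stayed near its WT counts. It had 13763 and 14648 normalized counts in WT and 12934 and 13635 in set2d, a change of -0.10 (SE 0.11, limma adjusted p = 0.621). The counts over SPNCRNA.846 were 60.1% and 52.1% of those of cig2 in WT and 30.4% and 32.8% in set2d, with no overlap. The log2 ratio changed by -0.82 (SE 0.10, unadjusted p = 0.00336 and adjusted p = 0.257 by limma), which did not pass. The call of SPNCRNA.846 itself was lost on leaving out set2d replicate 1 and with no filter on low values, and its change ranged from -1.01 to -0.83 when 1 library was left out.

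A further 12 members differed from the partner by at least 0.25. SPNCRNA.992, over grp1, had 125% and 124% of the partner's counts in WT and 186% and 170% in set2d. Its ratio changed by 0.51 (SE 0.057, limma adjusted p = 0.248). Another opposite-strand gene, ric1, covers 27.3% of SPNCRNA.992 and had a change of 0.43 that did not pass (limma adjusted p = 0.0975). SPNCRNA.763, over sgt1, had 220% and 219% in WT and 178% and 150% in set2d: both rose, the member by 0.80 and sgt1 by 1.23. The other gene under SPNCRNA.763, dld1, covers 12.2% of its length, and its change of 0.12 did not pass (limma adjusted p = 0.52). The WT mean log2 value was 15.06 for dld1 and 11.57 for sgt1. SPNCRNA.1104 rose by 0.68, a call lost with no filter on low values, while its main partner bcd1, a snoRNA biogenesis gene, was at 0.37 (limma adjusted p = 0.152), and the other gene under it, SPCC613.08, rose by 0.78. For these pairs the libraries of each group did not overlap, but no ratio passed.

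**Figure D5:**
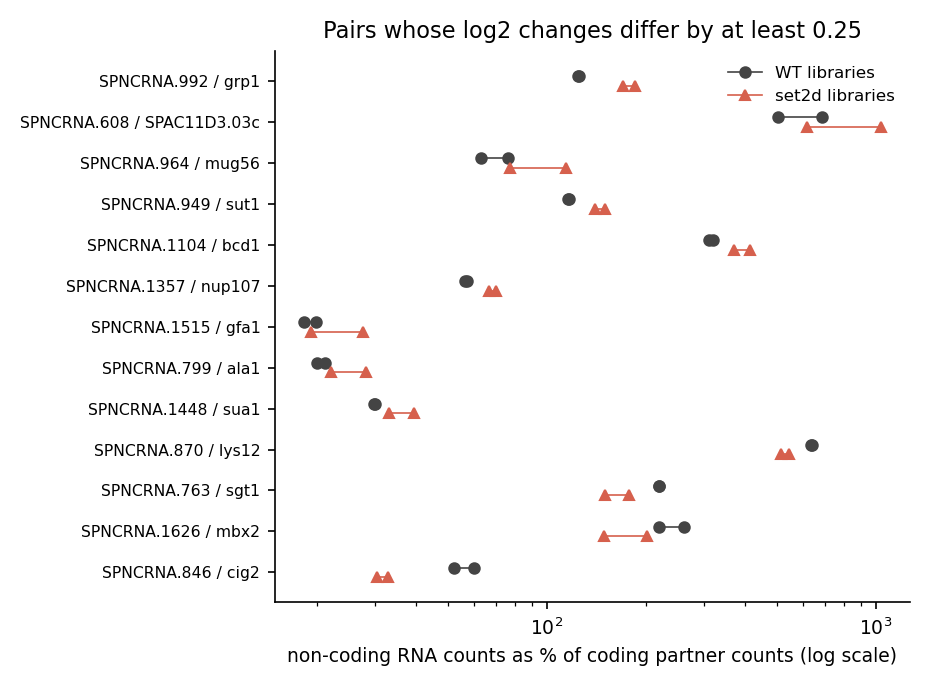
Counts of a non-coding RNA as a percentage of the counts of its coding partner in each library (horizontal axis, log scale; circles WT, triangles set2d) for the 13 pairs whose log2 changes differ by at least 0.25, ordered by the change of the ratio. SPNCRNA.846 shows the largest shift, from 52.1% and 60.1% in WT to 30.4% and 32.8% in set2d.

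SPNCRNA.1305 is the member that meets no coding gene, and lies within 100 kb of an end of chromosome II. It had 8064 and 10192 normalized counts in WT and 13763 and 15917 in set2d. The groups were separate, with a rise of 0.71 (SE 0.15, limma adjusted p = 0.0156). It is not free of overlap: the pseudogene SPBPB21E7.08 on the other strand covers 53.4% of it and also rose by 0.71. The nearest coding gene, aes1, rose by 2.87. The call of SPNCRNA.1305 was lost without the trend, with no filter on low values and on leaving out WT replicate 1 or either set2d library.

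Of the 6 members that carry a name, none passed in limma (2 at an unadjusted p under 0.05, prl3 and prl53); with 11.6% of all genes higher and 2.77% lower, so few members give no contrast with the background. The log2 changes were -0.43 for prl3, -0.15 for prl25, -0.35 for prl32 and -0.20 for snoZ, the primary transcript of a cluster of small nucleolar RNAs. The change was -0.0044 for nc-tco1, an untranslated transcript of the tco1 locus. All 6 values were below 0, where the median of all genes tested was 0.0091. The values of nc-tco1 and prl32 changed sign when 1 library was left out, so the shared direction is not read as a result. In 2 of the 6, prl3 and prl53, both set2d libraries were below both WT libraries, as they were for 26.2% of all genes tested. For prl32 the libraries of WT were far apart, at 4169 and 8548 normalized counts, against 5184 and 4207 in set2d.

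Replicate spread limited some members more than others. The gap between the libraries of a group had a median of 0.12 log2 units in WT and 0.20 in set2d, and exceeded 0.5 for 6 members in WT and 19 in set2d. SPNCRNA.1626, over the transcription factor gene mbx2 and chosen after its values were seen, had 18958 and 28808 normalized counts in WT and 18447 and 47415 in set2d. Its change of 0.34 (SE 0.38) was smaller than its error. SPNCRNA.957 and SPNCRNA.1376 lie over the near-identical tef102 and tef103 genes, so their counts are uncertain. Just inside the WT threshold were SPNCRNA.640, with a log2 change of 0.49, and SPNCRNA.1505, with 0.35, and just outside it SPNCRNA.1665, with 0.40, and SPNCRNA.1286, with 0.71.

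Genes of RNA decay were also described, and 2 passed the test, too few for a contrast with all genes. Of a list of 30 genes of the exosome, its cofactors, the 5' exonucleases, nonsense-mediated decay and the Ski complex, 29 were matched. By limma 2 were higher and 0 lower (6.90% and 0.0%, against the background of 11.6% and 2.77%; 5 and 0 at an unadjusted p under 0.05, and 1 and 0 without the trend), and the median log2 change was 0.064. The Ski complex gene ski3 rose by 0.73 (SE 0.13, limma adjusted p = 0.00671), and mtr4, the helicase of the TRAMP complex, by 0.47 (SE 0.11, limma adjusted p = 0.0233). The changes of red1, at 0.37, and the poly(A) polymerase gene cid14, at 0.33, did not pass. The member SPNCRNA.735 has 50.5% of its length opposite mtr4 and 42.1% opposite cut9, whose change of 0.088 did not pass. SPNCRNA.735 rose by 0.52, a call lost in 6 of the 12 refits.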

How the data were processed

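The submitters' processing notes name the genome build ASM294v2, the aligner STAR (2.5.4b) and the counter featureCounts (1.5.0-p1). The normalization, the annotation, the strand setting and the handling of reads over several genes were not given in the sources used here. Each gene has 1 deposited log2 value per library, which the values show to be the log2 of normalized counts with a floor of 10.

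A pseudocount of 1 had been planned for values on a linear scale and was not needed, and the log2 values entered limma 3.58.1 (R 4.3.3) as deposited, with a trend of variance on level. The 6633 genes that exceeded the floor in 2 or more libraries entered and 353 did not. Two-sided p-values were adjusted by Benjamini and Hochberg's method across those genes and read at 0.05, on 2 residual and 6.16 prior degrees of freedom. Log2 changes are set2d minus WT, and the procedure was tested on simulated data. Depth is unknown, so no counting error is given.

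Identifiers were matched to ASM294v3 for 6838 of 6986 rows. That build differs from the authors', so it served for names, strands, lengths and overlaps, and neither coordinates nor sequences are given. The partner is the coding gene with the largest overlap. Near-identical copies were sought with BLAST 2.17.0.

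The members, the lists and the tests were chosen with earlier results of these data known. Named members were those with a gene symbol, the 6 highest per length, up to 10 called in each direction by size of change, the 4 largest changes per position class, and those nearest the threshold, with their partners, set2 and the 4 decay genes with the largest changes. One member named by this rule is not reported here. Others are said to be chosen after their values were seen, or are named for a difference from the partner, also seen first. Alternatives were the trend, normalization, filter, floor, membership rule, replicate block and leaving out each library.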

Additional observations from a re-analysis of the deposited data

How the results depend on the processing

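The 43 higher and 8 lower members became 21 and 5 without the trend and 7 and 0 with no filter on low values, where the genes at the floor enter the estimate of the spread. Quantile normalization gave 27 higher members and a median log2 change of 0.041 in place of 0.11. Leaving out 1 library at a time gave 14 to 23 higher members, 1 to 9 lower ones and a median of 0.067 to 0.18, with the lowest counts without set2d replicate 1 and the highest median without set2d replicate 2; the lone library of a group is then assumed to vary like the other group. Of the 43 higher calls 14 were kept without set2d replicate 1, and of the 8 lower calls 1.

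Choosing members by the mean of all 4 libraries gave 57 higher and 5 lower of 268, with a median of 0.15, a WT mean of at least 13 gave 27 higher and 5 lower of 154, and the 5 members under 10% covered by coding genes had 1 higher, 1 lower and a median of 0.31. Over all genes, the 767 higher and 184 lower calls became 499 and 103 without the trend, 177 and 21 with no filter, and 324 to 488 and 45 to 86 when 1 library was left out.

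Same-numbered libraries carry the same title prefix, but the labels do not say what it stands for, and 2 pairs cannot show a pairing. They deviated together, with correlations of 0.451 over all genes and 0.558 over the members. With the number as a replicate block 80 members were higher and 22 lower, and 1380 and 847 genes in all.

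Signs were followed for 75 single-gene results and not for every member, so other members may turn too. Among those followed, the sign turned for some members that had not passed when 1 library was left out. Their log2 changes then ranged from -0.22 to 0.22 for nc-tco1 (SPNCRNA.600), -0.87 to 0.16 for prl32 (SPNCRNA.32), -0.065 to 0.14 for SPNCRNA.826, -0.10 to 0.24 for SPNCRNA.1261, -0.15 to 0.025 for SPNCRNA.1465, -0.12 to 0.43 for SPNCRNA.741, -0.21 to 0.045 for SPNCRNA.112, -0.34 to 1.02 for SPNCRNA.1626 and -0.17 to 0.79 for SPNCRNA.1115. The count of member-to-partner ratios past the threshold was 0 under each alternative tried. The causes of these shifts were not tested.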

Other observations

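Of the 7 members with no position in the annotation used, SPNCRNA.564 had 5848 and 5813 normalized counts in WT and 10740 and 8049 in set2d, a rise of 0.67 (limma adjusted p = 0.0251). That call was lost in 6 of the 12 refits, and the change ranged from 0.47 to 0.88 when 1 library was left out. SPNCRNA.574 had 8872 and 6918 in WT and 5867 and 4230 in set2d, and its change of -0.65 did not pass (limma adjusted p = 0.0587).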
